A study of Mus musculus with 9 samples.

Results

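Papain-treated and untreated mouse nasal mucosa were compared in 6 RNA sequencing libraries, 3 of each kind, out of 9 in the study. The other 3 libraries, from papain-treated mice also given exosomes, were no side of the comparison. They entered the estimate of the spread and the reference used to rescale all 9 libraries. Wild-type (WT) mice of the papain group received papain, a cysteine protease from papaya, into the nose at 20 µg in 20 µl of PBS on days 0 to 2 and again on days 7 to 11, with tissue taken on day 12. The protocol gives MSC-Exos or PBS by the same route on days 7 to 11, which leaves PBS for the papain group without exosomes. Controls are labelled as WT with no treatment, and the labels do not say whether they had PBS. Such mice serve in the study as its model of eosinophilic chronic rhinosinusitis. Nothing in the labels ties a library to its own animal, and p-values here reflect variation among libraries that could be technical. In a piece of tissue, fewer cells of a type and less RNA per cell cannot be told apart.

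Genes were compared where FPKM (fragments scaled by transcript length and by the total of the library) reached 1 in at least 3 of the 6 libraries, which left 11658 of 21930 genes. Of these, 45 reached it in the controls only and 146 in the papain libraries only, so counts over the tested members of a list are descriptions. The log2 change is the difference in log2(FPKM + 1), papain minus control, which understates the change of low genes. The same comparison was run after median-of-ratios scaling, which divides each library by a size factor and left 12187 genes. Size factors were 0.763 to 0.765 in the controls and 1.07, 0.710 and 0.971 in papain libraries 1, 2 and 3. A rough depth estimate from low values was 16.8 to 25.1 M fragments (M, mega) for the 6 libraries. The 15 most abundant genes, mostly secreted odorant-binding proteins, took 49.7% to 52.5% of length-weighted FPKM in the controls and 34.1%, 51.4% and 38.1% in papain libraries 1, 2 and 3. Papain library 2 thus lay with the controls in this respect. The median log2 change over all tested genes was 0.19 as deposited and -0.0042 scaled. Genes of the labelled tissue were present in every library, with Omp (olfactory neurons) at 78.5 to 257 FPKM, Foxj1 (ciliated cells) at 17.1 to 35.5 FPKM and Krt5 (basal cells) at 9.91 to 22.9 FPKM.

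Inhaled proteases injure the airway lining and can start type 2 inflammation, in which damaged epithelium releases alarmins, and IL-4 and IL-13 act through the transcription factor STAT6 on epithelium and macrophages. Goblet cells then make gel-forming mucins, and eosinophils, mast cells and alternatively activated macrophages gather. The mouse nose holds both respiratory epithelium and olfactory epithelium, in which each mature sensory neuron chooses a single odorant receptor gene.

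More genes were called higher after papain than lower, by a margin that depended on the scale. As deposited, 409 of 11658 genes were called higher (3.51%) and 65 lower (0.558%) by limma at a Benjamini-Hochberg adjusted p of 0.05. After scaling, 722 of 12187 genes were called higher (5.92%) and 518 lower (4.25%). Both scales together called 361 of 11655 genes higher (3.1%) and 61 lower (0.523%), and list counts below use these calls. Joint calls need the call as deposited, where the median log2 change over all genes was 0.19, so they carry that shift. Counts depended on single libraries. Leaving out papain library 2 gave 622 higher and 65 lower on this joint criterion, and without papain library 3 they were 169 and 30. Leaving out control 1, 2 or 3 gave 229, 180 or 192 higher and 38, 30 or 38 lower. Without papain library 1 there were 281 higher and 139 lower, and without exosome library 3 there were 615 and 114. Size factors were kept in these fits, so leaving out exosome library 3 altered only the spread. A stricter class, called steady here, needs the call on both scales and in all 9 fits that leave out 1 library, and control and papain libraries that do not overlap. It held 159 rises (1.36%) and 28 falls (0.24%), and 22 of the 28 falls were odorant receptor genes. Receptor genes were 91 of the 11658 tested. Those that fell passed the filter through the controls, where they were high, so this count is a description. For comparison, every papain library exceeded every control library in 2410 genes (20.7%), and the reverse held in 260 (2.23%), both on the deposited values with the same shift.

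**Figure D1:**
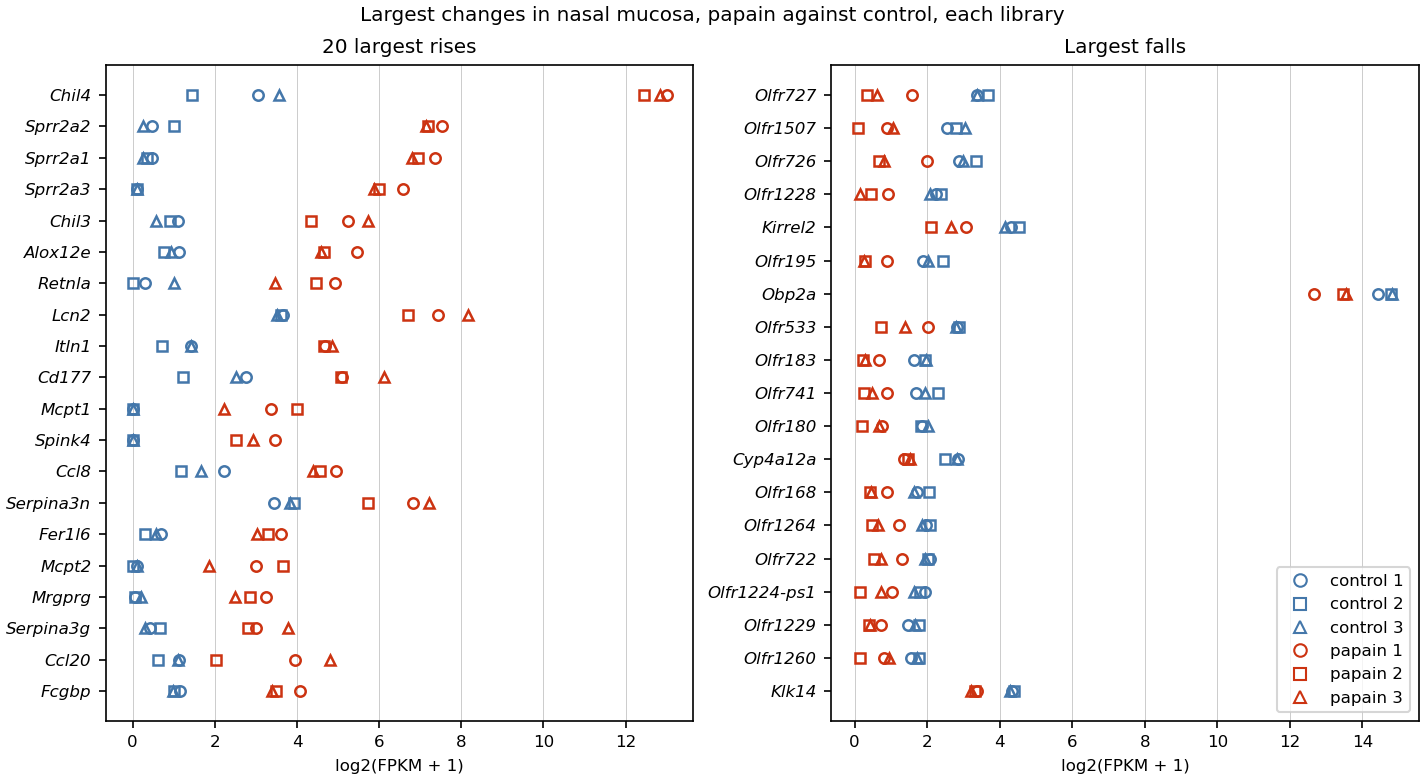
Expression of the 20 steady genes of largest rise (left) and genes among those of largest fall (right), as log2(FPKM + 1), with 1 point per library (circle, square and triangle for replicates 1, 2 and 3; blue for control, red for papain). Chil4 lies furthest to the right among the rises, and 15 of the falls shown are odorant receptor genes, which passed the filter through the controls.

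Chitinase-like proteins and small proline-rich proteins gave the largest rises. Of 8 tested chitinase family genes 5 rose on both scales, all of them steady, with a median log2 change of 1.21 over the 8. Chil4, which encodes the secreted lectin Ym2, stood at 7.26, 1.71 and 10.9 FPKM in the controls and 8211, 5631 and 7382 FPKM after papain (log2 change 10.09 ± 0.34, SE, limma adjusted p = 3.1e-15). It went from a minor transcript to one of the more abundant in every papain library. Chil3, which encodes Ym1, was at 1.15, 0.879 and 0.474 FPKM in the controls and 36.6, 19.4 and 51.7 FPKM after papain (log2 change 4.24). Chil1 (log2 change 2.10), Chil6 (1.22) and the active chitinase gene Chit1 (1.21) rose less. Chil3 and Chil4 are close copies, so the authors' counting could have moved reads between them. Among 8 tested small proline-rich and cornified envelope genes, which build the tough lining of squamous cells, 4 rose (median 1.12). Sprr2a1 stood at 0.384, 0.272 and 0.188 FPKM in the controls and 162, 122 and 111 FPKM after papain (log2 change 6.68 ± 0.24, SE, limma adjusted p = 1.03e-14). Sprr2a2 and Sprr2a3 changed by 6.71 and 6.06, and Sprr1a by 1.70, from 34.5, 16.9 and 23 FPKM in the controls and 88.2, 63.2 and 89.5 FPKM after papain. The control and papain libraries lay far apart for all 3 Sprr2a genes, whose separate levels are uncertain because their sequences nearly coincide. Without the filter on low values Chil6 lost its call (limma adjusted p = 0.0815).

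RefSeq promoter windows (GRCm38.p6, 250 bases before to 50 after the gene start) were searched for TTC, any 4 bases and GAA, a pattern of 10 bases that reads the same on both strands and has the spacing STAT6 prefers. Of 81 named rises, 57 had a window and 10 of these held the element (17.5%), against 2164 of 27025 genes in the table (8.01%). With 20 more rises that were chosen after their values were seen, it was 10 of 74 (13.5%). The Sprr2a1 and Sprr2a2 windows were identical over 300 bases and that of Sprr2a3 over the 272 bases it shares with them, so these 3 count as copies of 1 sequence. The match is a description of letters and no measure of binding. Windows around the element, in capitals, are shown for the resistin-like pair, for Sprr2a1 as an example of the largest rises, and for a chemokine, an antimicrobial and a cytokine antagonist gene, with positions as chr16:48842439-48842498 for Retnla (+ strand), chr16:48872511-48872570 for Retnlg (+), chr3:92215606-92215665 for Sprr2a1 (+), chr8:94810274-94810333 for Ccl17 (+), chr2:32387861-32387920 for Lcn2 (- strand) and chr2:24345145-24345204 for Il1rn (+).
Retnla: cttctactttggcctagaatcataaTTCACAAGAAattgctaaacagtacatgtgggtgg
Retnlg: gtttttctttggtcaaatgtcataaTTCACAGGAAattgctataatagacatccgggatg
Sprr2a1: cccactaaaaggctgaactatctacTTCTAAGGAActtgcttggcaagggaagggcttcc
Ccl17: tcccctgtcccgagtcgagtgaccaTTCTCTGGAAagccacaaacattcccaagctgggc
Lcn2: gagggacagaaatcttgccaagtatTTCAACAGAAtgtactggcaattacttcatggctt
Il1rn: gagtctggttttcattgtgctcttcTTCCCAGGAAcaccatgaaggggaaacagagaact

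Most goblet cell genes that passed the filter rose. Of 16 tested mucin and goblet genes, out of 25 listed, 11 rose, 9 of them steady, with none lower. Their median log2 change was 1.41 against 0.19 over all genes. Clca1, for one, passed the filter only through the papain libraries, so these counts are descriptions. Muc5ac, the gel-forming mucin of airway surface goblet cells, stood at 5.22, 1.54 and 3.47 FPKM in the controls and 33.7, 16.5 and 21.4 FPKM after papain (log2 change 2.53 ± 0.28, SE, limma adjusted p = 2.28e-06). Muc5b, the gel-forming mucin of glands, was at 4.82, 4.99 and 4.7 FPKM in the controls and 18.7, 10.3 and 22.6 FPKM after papain (log2 change 1.57 ± 0.26, SE, limma adjusted p = 0.000568). Both were higher in every papain library than in any control. Clca1, a secreted regulator of mucus, was listed at 0 in controls 1 and 2 and at 0.0168 FPKM in control 3, against 8.22, 4.89 and 2.98 FPKM after papain (log2 change 2.58 ± 0.22, SE, limma adjusted p = 6.02e-08). Itln1, an intelectin that binds microbial sugars, was at 1.7, 0.646 and 1.66 FPKM in the controls and 24.6, 24.3 and 27.8 FPKM after papain (log2 change 3.54). Further rises were Fcgbp (2.60), the trefoil peptides Tff1 (2.18) and Tff2 (1.92), the membrane mucin Muc1 (1.5) and Agr2 (1.31), which helps fold mucins. Scgb3a1, 1 of 7 tested secretoglobins and the single member called, went from 1.72, 3.48 and 3.07 FPKM in the controls and 22.5, 9.69 and 34.2 FPKM after papain (log2 change 2.49). Without the filter on low values Muc5b had a limma adjusted p of 0.0582. The list gave 9 calls without any one of the 3 papain libraries.

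Chemokines that draw eosinophils, monocytes and lymphocytes rose. Of 15 tested CC chemokine genes and receptors 10 rose, 8 steady, with a median log2 change of 1.02. Ccl24, an eotaxin, was at 0.0261, 0 and 0.0565 FPKM in the controls and 3.82, 2.59 and 3.17 FPKM after papain (log2 change 2.02 ± 0.16, SE, limma adjusted p = 9.69e-09), and Ccl11, another eotaxin, changed by 1.61. The 3 papain libraries were close to each other for Ccl24 and Ccl11. Ccl8, a chemokine for CCR8-bearing cells in mice, was at 3.63, 1.27 and 2.16 FPKM in the controls and 30.1, 22.7 and 19.9 FPKM after papain (log2 change 2.95). Ccl20, which attracts CCR6-bearing dendritic and lymphoid cells, was at 1.2, 0.545 and 1.13 FPKM in the controls and 14.6, 3.05 and 27 FPKM after papain (log2 change 2.64 ± 0.45, SE, limma adjusted p = 0.000729). Papain library 2 was the lowest of the 3 and library 3 the highest. Ccl17 (1.09), Ccl6 (1.32), the mucosal chemokine Ccl28 (1.24) and the receptor Ccr2 (1.01) also rose. Ccr1 (1.02) lost its call without control 2 or papain library 3 (limma adjusted p up to 0.0924). Of 10 tested CXC genes 2 rose (4 without papain library 2), Cxcl17 (1.51) and the tissue lymphocyte receptor Cxcr6 (1.28). Without the filter on low values the calls of Ccl20, Ccl17, Ccl6 and Ccr1 ended (limma adjusted p = 0.119, 0.0673, 0.0713 and 0.138).

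Type 2 cytokines themselves were scarce. Il13 was at 0, 0 and 0.0275 FPKM in the controls and 0.600, 0.454 and 0.746 FPKM after papain, and Il5 at 0.0815, 0.116 and 0.0114 FPKM in the controls and 0.679, 0.402 and 1.17 FPKM after papain. Both sat under the filter and were not tested. Il4 was at 1.06, 1.3 and 1.15 FPKM in the controls and 1.59, 0.661 and 1.36 FPKM after papain, with overlapping groups (log2 change -0.00 ± 0.20, SE, limma adjusted p = 0.995). Il33, an epithelial alarmin, was at 28.9, 27 and 29.5 FPKM in the controls and 24.8, 16.4 and 22.5 FPKM after papain, so every papain library was lower than every control. Its change did not pass as deposited (log2 change -0.43 ± 0.19, SE, limma adjusted p = 0.267) and passed after scaling (log2 change -0.66, limma adjusted p = 0.00104). Tslp and Il25 stayed under the filter, with Il25 listed at 0 in papain libraries 1 and 2. Of 10 tested alarmin, type 2 cytokine and receptor genes 5 rose (Osmr, Il4ra, Areg, Il13ra1 and Il2rg), and 1 of these, the EGF-family ligand gene Areg (0.92), was steady. The count was 1 without papain library 3. Il4ra, the receptor chain shared by IL-4 and IL-13, was at 1.14, 1.82 and 1.3 FPKM in the controls and 4.86, 2.43 and 4.18 FPKM after papain (log2 change 0.97 ± 0.23, SE, limma adjusted p = 0.0145). It lost its call without control 1, control 3 or papain library 3 (limma adjusted p 0.0504 to 0.0924), and without the filter (0.148).

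Among 18 tested SOCS and STAT genes, which carry and restrain cytokine signals, 4 rose, and 2 without papain library 3. Socs3, a feedback inhibitor of JAK signalling, was at 1.95, 1.79 and 1.6 FPKM in the controls and 10.5, 4.05 and 11.9 FPKM after papain (log2 change 1.71 ± 0.27, SE, limma adjusted p = 0.000326), and Cish, a STAT5 target, at 1.24, 0.547 and 1.17 FPKM in the controls and 5.01, 2.97 and 2.98 FPKM after papain (log2 change 1.22). Papain library 2 was lowest of the 3 for Socs3. Stat3 was at 8.83, 8.74 and 7.25 FPKM in the controls and 20.6, 12.2 and 18.2 FPKM after papain and lost its call without control 3 or papain library 3 (limma adjusted p 0.0754 and 0.0904), without the filter (0.109) and on the TPM scale (0.0566). Stat6 was not called (log2 change 0.51 ± 0.20, SE, limma adjusted p = 0.169). In the IL-1 and IL-36 family 3 of 6 tested genes rose, and 1 without papain library 3. The IL-1 receptor antagonist gene Il1rn was at 0.487, 0.108 and 0.324 FPKM in the controls and 3.21, 1.47 and 3.98 FPKM after papain (log2 change 1.52 ± 0.24, SE, limma adjusted p = 0.000256), and Il1b was at 2.13, 2.34 and 1.59 FPKM in the controls and 10.9, 3.81 and 16.6 FPKM after papain (log2 change 1.74). Il1b lost its call without papain library 3 (limma adjusted p = 0.0637). Without the filter the limma adjusted p was 0.0555 for Socs3, 0.0515 for Il1rn and 0.182 for Il1b.

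Markers of mast cells, eosinophils and alternatively activated macrophages rose in part. Mcpt1, a mucosal mast cell protease, was listed at 0 in all 3 controls and at 9.35, 14.9 and 3.68 FPKM after papain (log2 change 3.20 ± 0.27, SE, limma adjusted p = 5.64e-08). Mcpt2, its neighbour and close copy, was at 0.0677, 0 and 0.0771 FPKM in the controls and at 7.03, 11.6 and 2.61 FPKM after papain (log2 change 2.77). Papain library 3 was lowest for both. They were the 2 of 5 tested mast cell and basophil markers that rose, and the basophil protease Mcpt8 did not reach 0.2 FPKM in any library. The summed FPKM of the 15 markers was 18.9 to 21.8 in the controls and 43.1 to 54.3 after papain. For eosinophils 3 of 13 markers were tested and 2 rose. Ear2, a ribonuclease gene of a family of close copies, was at 0.618, 0.56 and 0.906 FPKM in the controls and 7.87, 8.42 and 3.68 FPKM after papain (log2 change 2.11), and the other, Alox15, is also made by macrophages and epithelium. Of the eosinophil granule genes, Prg2 was at 0.0504 and 0.0976 FPKM in controls 2 and 3, at 0 in control 1, and at 0.922, 0.829 and 0.718 FPKM after papain, and Epx did not exceed 0.0145 FPKM. Siglecf was at 0.195, 0.119 and 0.322 FPKM after papain. The 13 markers summed to 5.2 to 7.45 FPKM in the controls and 24.3 to 30.3 FPKM after papain. Alox15 made up most of this sum in every library, so the sum is no measure of eosinophils alone.

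Retnla, the resistin-like protein of alternatively activated macrophages and eosinophils, was at 0.228, 0 and 1.01 FPKM in the controls and at 29.4, 21 and 9.99 FPKM after papain (log2 change 3.85 ± 0.30, SE, limma adjusted p = 9.46e-09). Papain library 3 was again lowest, and the groups lay far apart. Of 20 tested macrophage genes 7 rose (3 steady; 3 without papain library 3). Arg1, the arginase of such macrophages, was at 0.567, 0.512 and 0.875 FPKM in the controls and 4.48, 2.97 and 4.39 FPKM after papain (log2 change 1.57 ± 0.18, SE, limma adjusted p = 4.66e-06). C1qa, a complement subunit of tissue macrophages, was at 9.6, 10.1 and 10.1 FPKM in the controls and 22.9, 17.3 and 25.9 FPKM after papain (log2 change 1.05). Neutrophil markers rose in 5 of 9 tested genes, and in 2 without papain library 3. Retnlg, a resistin-like gene of granulocytes, was at 1.14, 2.19 and 1.03 FPKM in the controls and 7.02, 3.54 and 6.94 FPKM after papain (log2 change 1.46), and the alarmin S100a8 at 8.19, 10.6 and 7.34 FPKM in the controls and 20.1, 14.4 and 33.2 FPKM after papain (log2 change 1.22 ± 0.24, SE, limma adjusted p = 0.00264). S100a9, its partner, was at 11.1, 20.3 and 10.8 FPKM in the controls and 37.5, 19.3 and 48.3 FPKM after papain and was called as deposited only (limma adjusted p = 0.00903, scaled 0.0728). Ltf, lactoferrin, also a gland product, changed by 1.16. The calls of S100a8 and S100a9 ended without the filter (limma adjusted p = 0.0816 and 0.152).

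Antigen presentation genes moved less. Of 11 tested dendritic cell and MHC class II genes 3 rose (2 without papain library 2 or 3, 5 without library 1), led by H2-Ab1 at 5.61, 6.29 and 6.96 FPKM in the controls and 14.8, 14 and 19.8 FPKM after papain (log2 change 1.23). Of 17 tested MHC class I and immunoproteasome genes 4 rose (2 without papain library 2 or 3), led by H2-K1 (log2 change 1.37), and reads of H2 genes may be shared between copies. Of 32 tested interferon-stimulated genes 4 rose (median 0.53), none steady and 2 without papain library 3, among them Zbp1 (0.92) and Oasl2 (0.87). At an unadjusted p under 0.05 in limma, 20 of the 32 were higher as deposited and 19 after scaling, with 0 lower. For the MHC class I list it was 12 and 12 of 17, and for the class II list 8 and 6, also with 0 lower. Over all tested genes 15% were higher as deposited and 13.3% after scaling. Zbp1 lost its call without control 1 or 3 (limma adjusted p 0.0575 and 0.0877), and Oasl2 without any of the controls (up to 0.0923) and as TPM (0.0884). Without the filter all 4 named genes fell short (limma adjusted p = 0.115, 0.0947, 0.131 and 0.115). The T cell gene Cd3e did not exceed 0.601 FPKM. The B and plasma cell list had 2 of 5 tested genes up, Pigr and Xbp1, and both are also epithelial genes. Xbp1 lost its call without any control, papain library 1 or 3 or exosome library 2 (limma adjusted p up to 0.259), as TPM (0.232) and without the filter (0.082). Jchain, which joins secreted antibody units, was at 2.61, 3.75 and 5.72 FPKM in the controls and 9.61, 134 and 185 FPKM after papain and passed as deposited only (limma adjusted p = 0.00308, scaled 0.0715). The part of such cells in the other results was not tested.

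A part of the lipid mediator genes rose, 3 of 4 tested genes of the lipoxygenase list and 6 of 19 tested prostaglandin and leukotriene genes. Alox12e, an epidermal-type lipoxygenase (chromosome 11, 70315610 to 70322628), was at 1.18, 0.71 and 0.894 FPKM in the controls and 43, 24.2 and 22.9 FPKM after papain (log2 change 3.96 ± 0.26, SE, limma adjusted p = 4.59e-10). Alox15, another lipoxygenase gene, was at 3.15, 4.79 and 4.22 FPKM in the controls and 16.8, 13.6 and 15 FPKM after papain (log2 change 1.68 ± 0.21, SE, limma adjusted p = 1.32e-05). The third member of the list called was Alox5ap, whose product is not itself a lipoxygenase. It lost its call without control 1, control 2 or papain library 3 (limma adjusted p 0.0841 to 0.0865). Pla2g4c, a phospholipase, was at 0.114, 0.175 and 0.103 FPKM in the controls and 3.64, 2.48 and 1.76 FPKM after papain (log2 change 1.65). Hpgds, the hematopoietic prostaglandin D synthase of tuft cells, mast cells and Th2 cells, was at 2.51, 0.862 and 1.6 FPKM in the controls and 6.64, 6.14 and 6.87 FPKM after papain (log2 change 1.55). The prostaglandin D receptor Ptgdr (0.94) and the microsomal transferase Mgst2 (1.58) were also up. Tuft cells are chemosensory epithelial cells that make IL-25 and leukotrienes. Of 14 tested tuft cell genes 7 rose (3 without papain library 3), including the taste G protein Gnat3 at 0.575, 0.345 and 0.182 FPKM in the controls and 2.65, 2.05 and 1.92 FPKM after papain (log2 change 1.23 ± 0.18, SE, limma adjusted p = 0.000105). Several of these 7, such as Hpgds and Alox5ap, are expressed by immune cells too.

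Antimicrobial and acute-phase genes were the list with the most steady rises, 10 of 18 tested, with a median log2 change of 1.11. Lcn2, which binds bacterial siderophores, was at 11.7, 11.1 and 10.4 FPKM in the controls and 172, 103 and 285 FPKM after papain (log2 change 3.84 ± 0.29, SE, limma adjusted p = 9.33e-09). Reg3g, a lectin that kills Gram-positive bacteria, was at 1410, 809.9 and 1057 FPKM in the controls and 4422, 3259 and 4065 FPKM after papain (log2 change 1.87), already among the abundant transcripts in controls. Saa3, an acute-phase serum amyloid, was listed at 0 in controls 2 and 3 and at 0.0687 FPKM in control 1, and reached 1.14, 2.76 and 9.36 FPKM after papain (log2 change 2.09). Papain library 3 was highest for Lcn2 and Saa3. Pigr, which carries antibodies across epithelium, was at 17, 13.5 and 11.5 FPKM in the controls and 51.3, 42.5 and 58.4 FPKM after papain (log2 change 1.79 ± 0.25, SE, limma adjusted p = 7.04e-05). Orm1 (1.80), Lbp (1.16), Cp (1.07) and Pglyrp1 (1.05) rose as well. Bpifb1, a BPI-fold protein of airway mucus, changed by 2.12. In the complement list 4 of 20 tested genes rose, with C3, the central component, at 1.79, 0.993 and 1.38 FPKM in the controls and 12.6, 9.11 and 13.4 FPKM after papain (log2 change 2.41 ± 0.23, SE, limma adjusted p = 4.93e-07) and Clu, an inhibitor of the terminal pathway, at 36.4, 46.9 and 45.5 FPKM in the controls and 183, 88.7 and 197 FPKM after papain (log2 change 1.77). Without the filter the limma adjusted p of Saa3 was 0.102.

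Papain is a cysteine protease, and cystatins and stefins are the inhibitors of that class. Over all 11658 tested genes 1750 (15%) were higher and 219 (1.88%) lower at an unadjusted p under 0.05 as deposited, and such counts for a list are to be read against these shares. None of 6 tested cystatins and stefins passed in limma on both scales, with 0 higher and 0 lower at an unadjusted p under 0.05 as deposited, and the median was 0.28. No cathepsin of 12 passed on both scales, and 5 were higher as deposited at an unadjusted p under 0.05. Of 18 tested serpins, most of which inhibit serine proteases, 4 rose and 1 fell. Serpina3n was at 9.95, 14.3 and 13.3 FPKM in the controls and 112, 52.1 and 147 FPKM after papain (log2 change 2.85 ± 0.28, SE, limma adjusted p = 5.8e-07) and Serpina3g at 0.351, 0.577 and 0.223 FPKM in the controls and 7.08, 6.01 and 12.7 FPKM after papain (log2 change 2.74), both from a cluster of close copies. Serpinb1a (1.84) and Serpinb11 (0.97) also rose, and Serpinb7 fell by 0.69 on the log2 scale. Serpinb7 lost its call without any control, papain library 3 or exosome library 2 (limma adjusted p 0.0612 to 0.212), as well as on the TPM scale (0.509) or without the filter (0.119). Among 10 tested WAP domain antiproteases 5 rose (2 without papain library 3). Slpi was at 1.52, 1.21 and 1.65 FPKM in the controls and 4.37, 4.47 and 20.5 FPKM after papain, so its size rested on papain library 3 (log2 change 1.81, and 1.14 without that library). Wfdc2 was at 138, 93.1 and 102 FPKM in the controls and 392, 219 and 352 FPKM after papain (log2 change 1.5). Of 24 tested protease receptors and epithelial serine proteases 6 rose (2 without papain library 3) and 1 fell. Plaur, the urokinase receptor, changed by 1.39 and St14, matriptase, by 1.19. F2rl1, the protease-activated receptor PAR2, was at 2.19, 2.02 and 2.03 FPKM in the controls and 6.58, 2.72 and 5.5 FPKM after papain (log2 change 0.88 ± 0.24, SE, limma adjusted p = 0.0415). It lost its call without any control or papain library 1 or 3 (up to 0.233), without the filter (0.218) and as TPM (0.0665). Klk14, a kallikrein, was the fall, at 19.4, 20.0 and 18.5 FPKM in the controls and 9.39, 8.93 and 8.24 FPKM after papain (log2 change -1.05 ± 0.20, SE, limma adjusted p = 0.00199), and had a limma adjusted p of 0.0897 as TPM. The calls of Slpi and Plaur ended without the filter (0.162 and 0.0555, limma adjusted p).

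**Figure D2:**
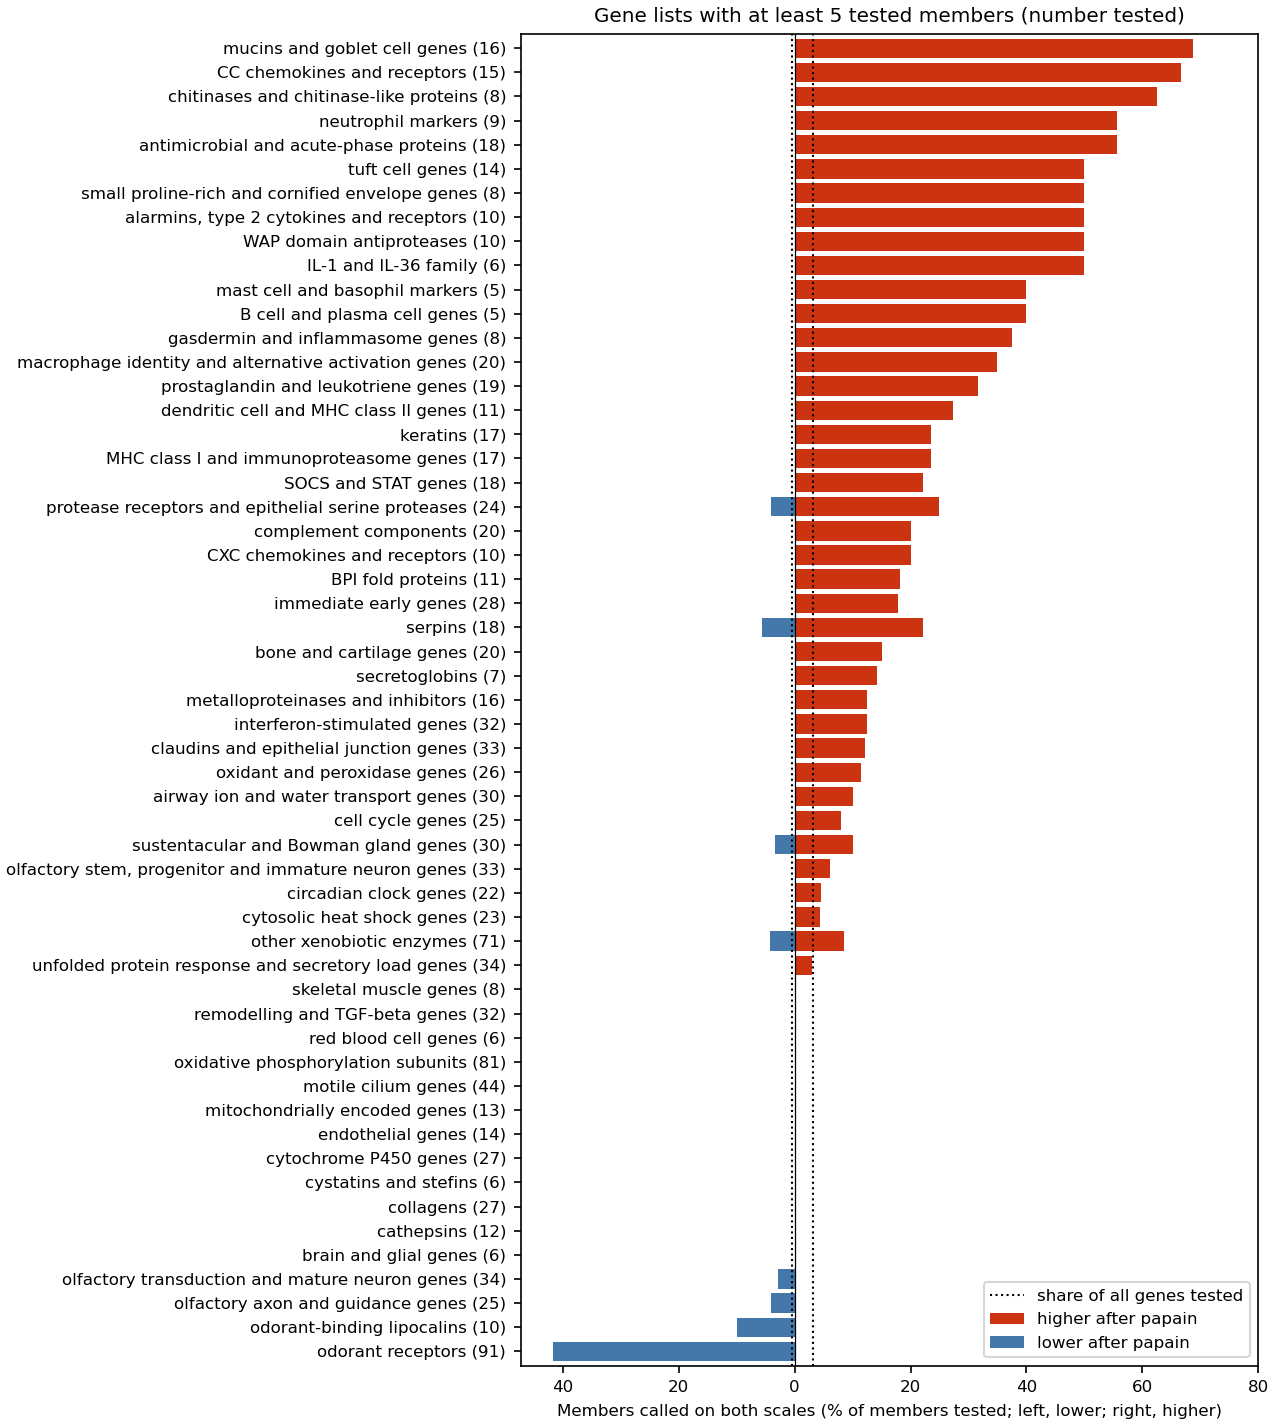
Share of tested members called on both scales for each gene list with at least 5 tested members, higher to the right and lower to the left, with the number tested in brackets and dotted lines at the shares over all tested genes (3.1% higher, 0.523% lower). Goblet, CC chemokine and chitinase lists reach furthest to the right, and odorant receptors, whose called members passed the filter through the controls, furthest to the left.

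Odorant-binding proteins of the nasal glands included a large fall. Obp2a, an odorant-binding lipocalin and among the most abundant transcripts of the tissue (chromosome 2, 25700043 to 25703326), was at 22256, 28566 and 28929 FPKM in the controls and 6481, 11421 and 12079 FPKM after papain (log2 change -1.45 ± 0.25, SE, limma adjusted p = 0.00084). All 3 papain libraries were lower than all controls. Its neighbour Obp2b was at 10959, 14520 and 12370 FPKM in the controls and 3396, 6950 and 7166 FPKM after papain, called as deposited (limma adjusted p = 0.0128) and not after scaling (0.0836). Obp1a, on the X chromosome, was at 87047, 70653 and 91187 FPKM in the controls and 78022, 85933 and 68310 FPKM after papain, and overlapped between groups (log2 change -0.10 ± 0.28, SE, limma adjusted p = 0.866). Of 10 tested lipocalins of this kind 1 fell on both scales, and 0 rose. Obp2b also lost its call without control 2 or papain library 1 (limma adjusted p 0.0532 and 0.0549). Without the filter Obp2a had a limma adjusted p of 0.13.

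Odorant receptor genes made up 38 of the 61 genes called lower on both scales and 87 of the 518 called lower after scaling. Of 1135 receptor genes listed, 91 passed the filter. All 38 that fell reached 1 FPKM in every control and not in every papain library, and 25 of them in the controls only, so the filter admitted them through the group where they were high. Counts over the 91 are for this reason given as descriptions and support nothing: 0 rose, 22 falls were steady, the median log2 change was -0.62, and at an unadjusted p under 0.05 in limma 5 were higher and 54 lower as deposited. With no filter, 32 of 1121 receptor genes above 0 fell on both scales and 0 rose in limma, where 41 of 19887 genes in all fell (0.206%) and 159 rose (0.8%). Over all 1135 receptor genes, every papain library was lower than every control in 240 and higher in 67, against 675 (3.08%) and 3319 (15.1%) of all 21930 genes. The 38 were 50, 35 and 23 when papain library 1, 2 or 3 was left out. Olfr727 on chromosome 14 was at 9.44, 11.8 and 9.28 FPKM in the controls and 1.98, 0.271 and 0.541 FPKM after papain (log2 change -2.62 ± 0.26, SE, limma adjusted p = 5.58e-07). Olfr1507, also on chromosome 14, was at 4.8, 5.89 and 7.26 FPKM in the controls and 0.867, 0.0642 and 1.1 FPKM after papain (log2 change -2.10). Papain library 2 was lowest for both. By chromosome, and over receptor genes whether tested or not, every papain library was lower than every control in 21 of 36 on chromosome 16, 14 of 40 on chromosome 14, 63 of 294 on chromosome 2, 38 of 244 on chromosome 7, 13 of 70 on chromosome 10 and 7 of 132 on chromosome 9. The difference between chromosomes was not tested. Receptor genes that lie side by side can resemble each other in sequence, so members of a chromosome are not independent.

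Class I receptors, the fish-like class, sit in a single cluster on chromosome 7 (taken here as 102476579 to 105369355, an interval set after the values were seen) and are used mainly in the dorsal part of the olfactory epithelium. Over all 129 class I genes, every papain library was lower than every control in 2 and higher in 6, and over 1006 class II genes in 238 and 61. With no filter, 27 of 126 class I genes above 0 (21.4%) had a negative log2 change, and their median was 0.11. For class II it was 575 of 995 genes (57.8%), with a median of -0.03. Over all 19887 genes above 0, 5207 (26.2%) were negative and the median was 0.097. Class I thus lay near all genes in this respect. Of genes that passed the filter, none of 10 of class I and 38 of 81 of class II fell on both scales by limma, and 1 of class I was higher at an unadjusted p under 0.05. Summed FPKM of all class I genes was 55.3, 37.2 and 35.7 in the controls and 102.3, 32.1 and 60.6 after papain. These groups overlapped, with papain library 2 below every control. Divided by the FPKM of Omp, the olfactory marker protein of mature neurons, the class I sum was 0.260, 0.145 and 0.202 in the controls and 0.456, 0.409 and 0.433 after papain. On this ratio every papain library was above every control, and in papain library 2 the divisor was the lowest of the 6, at 78.5 FPKM. The class II sum was 456, 457 and 418 FPKM in the controls and 482, 176 and 261 FPKM after papain. Relative to Omp it was 2.14, 1.78 and 2.37 in the controls and 2.15, 2.24 and 1.87 after papain, with overlapping groups. Single chromosomes differed in this ratio, and chromosomes 16 and 9 are given as examples. Every papain library was also above every control on chromosomes 1, 7, 10 and 17, and below every control on chromosomes 11, 13 and 14. On chromosomes 2, 6, 19 and X the groups overlapped. The chromosome 16 sum was 36.8, 37.9 and 34.3 FPKM in the controls and 21.1, 6.29 and 11.5 FPKM after papain, and relative to Omp 0.172, 0.148 and 0.194 in the controls and 0.0942, 0.0802 and 0.0823 after papain. The chromosome 9 sum overlapped between the groups as FPKM (41.9, 33.0 and 31.0 against 68.9, 28.7 and 35.5) and relative to Omp was 0.196, 0.129 and 0.175 against 0.307, 0.365 and 0.253. These ratios cancel the size of a library, and they are descriptions with no test. Nqo1 and Acsm4, markers of the dorsal zone, were not called (-0.01 and -0.09 as deposited), though Acsm4 was called lower after quantile normalization (limma adjusted p = 0.0496).

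**Figure D3:**
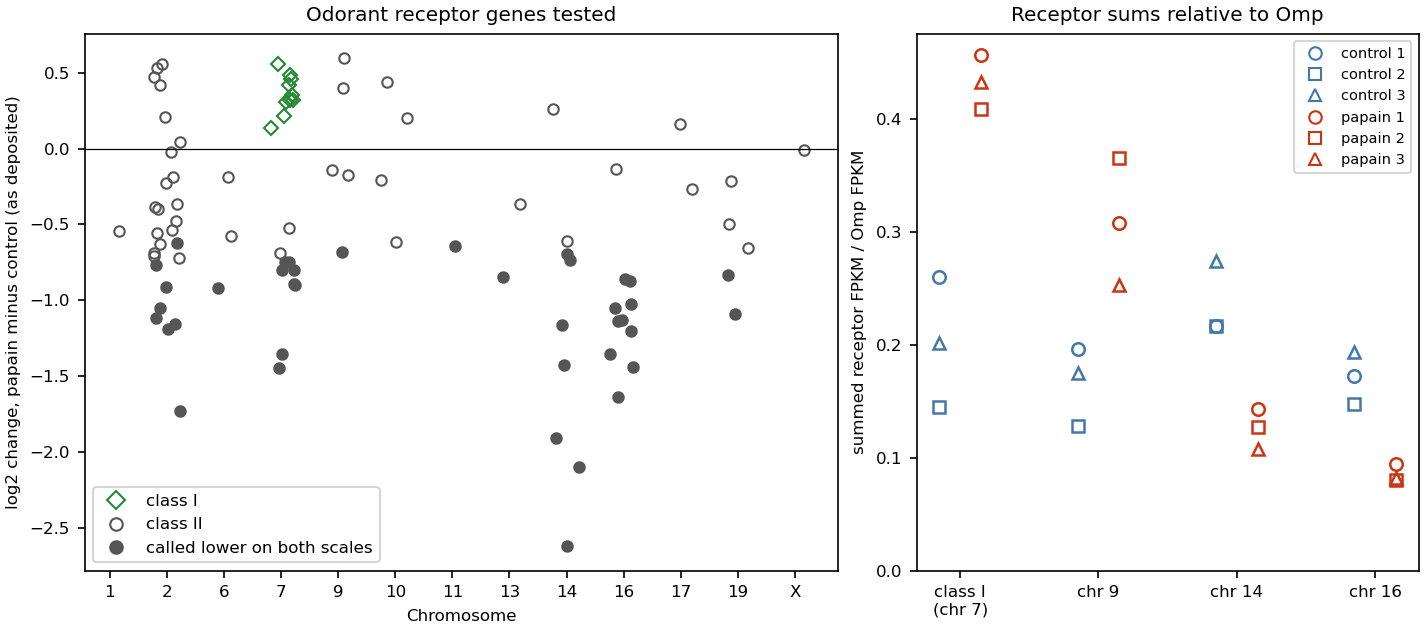
Left, log2 change as deposited of each odorant receptor gene that passed the filter, by chromosome (diamonds, class I; circles, class II; filled, called lower on both scales). Right, summed receptor FPKM divided by Omp FPKM in each library, for class I and example chromosomes. There class I and chromosome 9 lie higher after papain, and chromosomes 14 and 16 lower.

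Other genes of olfactory neurons gave few calls on both scales. Omp was at 213, 257 and 177 FPKM in the controls and 224, 78.5 and 140.0 FPKM after papain (log2 change -0.65 ± 0.31, SE, limma adjusted p = 0.292), and papain library 1 lay within the controls. Of 34 tested transduction and mature neuron genes 1 fell on both scales, and 12 fell after scaling, with medians of -0.46 and -0.70. The faller was the potassium channel subunit Kcnmb3, at 4.01, 4.32 and 4.1 FPKM in the controls and 2.36, 0.628 and 1.39 FPKM after papain (log2 change -1.13 ± 0.27, SE, limma adjusted p = 0.0169). It lost its call without control 2 or papain library 3 (limma adjusted p 0.0714 and 0.0628) and without the filter (0.192). Without papain library 1, 16 of the list were lower. Kirrel2, an adhesion molecule whose level in olfactory axons follows neuronal activity, was at 18.7, 22.2 and 16.9 FPKM in the controls and 7.4, 3.34 and 5.25 FPKM after papain (log2 change -1.72 ± 0.31, SE, limma adjusted p = 0.00122), and its call ended without the filter (0.105). Calb1, a calcium-binding protein, was at 1.49, 1.74 and 2.08 FPKM in the controls and 0.846, 0.141 and 0.237 FPKM after papain (log2 change -1.01; limma adjusted p = 0.0547 without the filter). Among 33 tested stem, progenitor and immature neuron genes 2 rose, Sox2 (1.03) and Krt14 (1.04), and 7 rose without papain library 2. Of 30 tested sustentacular and Bowman gland genes 3 rose (5 without papain library 2) and 1 fell, a steady fall. After scaling 6 of them were called higher and 5 lower. Cyp2g1, an olfactory P450, was at 330.1, 413 and 384 FPKM in the controls and 656, 254 and 439 FPKM after papain, with overlapping groups (log2 change 0.16 ± 0.27, SE, limma adjusted p = 0.773).

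Detoxifying enzymes moved in both directions. No gene of 27 tested cytochrome P450 genes in the list was called as deposited by limma (3 higher and 2 lower at an unadjusted p under 0.05), and 4 fell after scaling. Cyp4a12a, a fatty acid hydroxylase that the list did not hold, was at 6.17, 4.58 and 6.08 FPKM in the controls and 1.57, 1.76 and 1.9 FPKM after papain (log2 change -1.26 ± 0.19, SE, limma adjusted p = 0.00015). Of 71 other xenobiotic enzymes 6 rose (3 without papain library 1) and 3 fell on both scales (1 without papain library 3). Gstm1 was at 153, 183 and 184 FPKM in the controls and 105, 67.4 and 101 FPKM after papain and Adh1 at 113, 111 and 130.3 FPKM in the controls and 71.2, 68 and 70.1 FPKM after papain. Gstm1 lost its call without control 2 or 3 (limma adjusted p up to 0.0572), and Adh1 without any control or papain library 3 (up to 0.156), and neither passed as TPM (0.147 and 0.418). Gstm1 also missed without the filter (0.0936). Rises were seen for the retinoic acid enzyme Aldh1a3 (1.44), for Gsto1 (1.18; limma adjusted p = 0.0789 without the filter) and for Gstm5 (1.10). Gpx2, an epithelial glutathione peroxidase, changed by 1.17.

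A part of the barrier and cell death genes rose, in lists where the share called was above the 3.1% of all genes called higher on both scales. Of 33 tested junction genes 4 rose (7 without papain library 2, 1 without library 3), with Cldn4 at 7.95, 4.54 and 5.79 FPKM in the controls and 20.2, 12 and 16.8 FPKM after papain (log2 change 1.29), and of 17 tested keratins 4 rose, with Krt14 (1.04) and the wound keratin Krt16 (0.91) steady. Krt5, the partner of Krt14 in basal cells, was at 15.6, 9.91 and 22.9 FPKM in the controls and 17.8, 17.5 and 17.9 FPKM after papain and was not called (log2 change 0.20 ± 0.24, SE, limma adjusted p = 0.673). Of 8 tested gasdermin and inflammasome genes 3 rose, 2 of them steady. Gsdmc2, a gasdermin of pore-forming cell death (chromosome 15, 63824346 to 63845177), was listed at 0 in all controls and at 5.39, 2.88 and 1.38 FPKM after papain (log2 change 1.96 ± 0.23, SE, limma adjusted p = 5.48e-06). Casp4, caspase-11, was at 2.93, 1.65 and 2.81 FPKM in the controls and 7.2, 8.02 and 10.4 FPKM after papain (log2 change 1.47). Kcne3, a potassium channel subunit that supports chloride secretion, was at 3.87, 1.6 and 3.21 FPKM in the controls and 16, 12.3 and 15.5 FPKM after papain (log2 change 2.04). None of 27 tested collagens, 32 remodelling and TGF-beta genes or 14 endothelial genes passed on both scales by limma, with 1, 4 and 3 of them at an unadjusted p under 0.05 as deposited. After scaling, 5 of 30 collagens, 3 of 32 remodelling genes and 2 of 18 endothelial genes were called lower, where 4.25% of all genes were. On that scale 1 remodelling gene was called higher. Postn was at 30.6, 28.8 and 36.7 FPKM in the controls and 44.1, 26.1 and 40.0 FPKM after papain (log2 change 0.17 ± 0.25, SE, limma adjusted p = 0.743). The protease inhibitor Timp1 changed by 1.38, and the bone matrix genes Ibsp and Dmp1 by 1.57 and 1.67, with their highest value in papain library 1. The limma adjusted p without the filter was 0.0544 for Cldn4, 0.0937 for Krt16, 0.13 for Timp1, 0.168 for Ibsp and 0.119 for Dmp1.

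Cilia, respiration and dissection markers gave few calls. Of 44 tested motile cilium genes none passed in limma on both scales, with 14 higher at an unadjusted p under 0.05 as deposited (3 after scaling, where 13.3% of all genes were), and Foxj1 was at 21.2, 17.1 and 21 FPKM in the controls and 26.6, 28.4 and 35.5 FPKM after papain (log2 change 0.58 ± 0.19, SE, limma adjusted p = 0.1). None of 81 oxidative phosphorylation subunits and none of 13 mitochondrially encoded genes passed on both scales, with 14 and 0 higher at an unadjusted p under 0.05 in limma as deposited (2 and 0 after scaling). In the other direction, 0 and 0 were lower as deposited and 15 and 0 after scaling, where 12.4% of all genes were. After scaling 3 of the subunits were called lower and 1 higher, so the direction of this list depended on the scale. Cell cycle genes rose in 2 of 25 tested (9 without papain library 2), with Birc5 at 0.861, 0.666 and 0.748 FPKM in the controls and 2.57, 1.69 and 3.02 FPKM after papain (log2 change 0.94). Immediate early genes rose in 5 of 28 tested, none steady, and in 0, 7 and 1 without papain library 1, 2 or 3. Muscle, brain and red blood cell lists, which mark tissue taken along at dissection, had no gene called on both scales by limma, with 0, 3 and 0 at an unadjusted p under 0.05 as deposited. The summed FPKM of the 18 muscle genes was 5.54 to 57.3 in the controls and 4.32 to 41.6 after papain.

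Some of the clearest changes were in genes that belonged to no list. Mrgprg, an orphan receptor of the Mas-related family, was at 0.0473, 0.0416 and 0.149 FPKM in the controls and 8.53, 6.2 and 4.61 FPKM after papain (log2 change 2.75 ± 0.20, SE, limma adjusted p = 6.04e-09). Fer1l6, a ferlin, was at 0.621, 0.236 and 0.49 FPKM in the controls and 11.3, 8.86 and 7.1 FPKM after papain (log2 change 2.79). Spink4, a goblet cell peptide of the gut, was listed at 0 in all controls and at 10.1, 4.73 and 6.65 FPKM after papain (log2 change 2.98 ± 0.28, SE, limma adjusted p = 1.98e-07). Cd177, known from neutrophils, was at 5.73, 1.35 and 4.74 FPKM in the controls and 33.5, 32.8 and 68.7 FPKM after papain (log2 change 3.27). The calcitonin gene family pair Calca and Calcb, which encode CGRP peptides, rose together. Calcb was at 0.53, 0.118 and 0.243 FPKM in the controls and 3.8, 3.22 and 5.12 FPKM after papain (log2 change 1.95 ± 0.18, SE, limma adjusted p = 1.98e-07), and Calca at 0, 0.0646 and 0 FPKM in the controls and 2.38, 1.55 and 1.03 FPKM after papain (log2 change 1.35). Msln, mesothelin, changed by 1.95, Ifitm1 by 2.06, the anti-inflammatory annexin Anxa1 by 1.76 and surfactant protein D (Sftpd) by 1.60. For each of these genes every papain library was above every control.

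The 3 papain libraries differed in the size of the rises, and their order was not the same for every gene. Among the 159 steady rises, papain library 2 was the lowest of the 3 for 123 genes as deposited, and for 48 after scaling. Library 3 was the highest for 80 as deposited and for 72 after scaling. Over the 159 genes the median log2 ratio to the control mean was 1.53, 1.02 and 1.55 in libraries 1, 2 and 3 as deposited, and 1.15, 1.16 and 1.31 scaled. For mast cell proteases, Ear2 and Retnla library 3 was lowest, and for Lcn2, Saa3, Slpi and Ccl20 it was highest. Ccl11 and Ccl24 varied little among the 3. The genes of this contrast were picked with their values known, and others did not follow it. Il13, Il5 and Siglecf, all at low FPKM, were highest in library 3, and Retnlg was about equal in libraries 1 and 3.

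**Figure D4:**
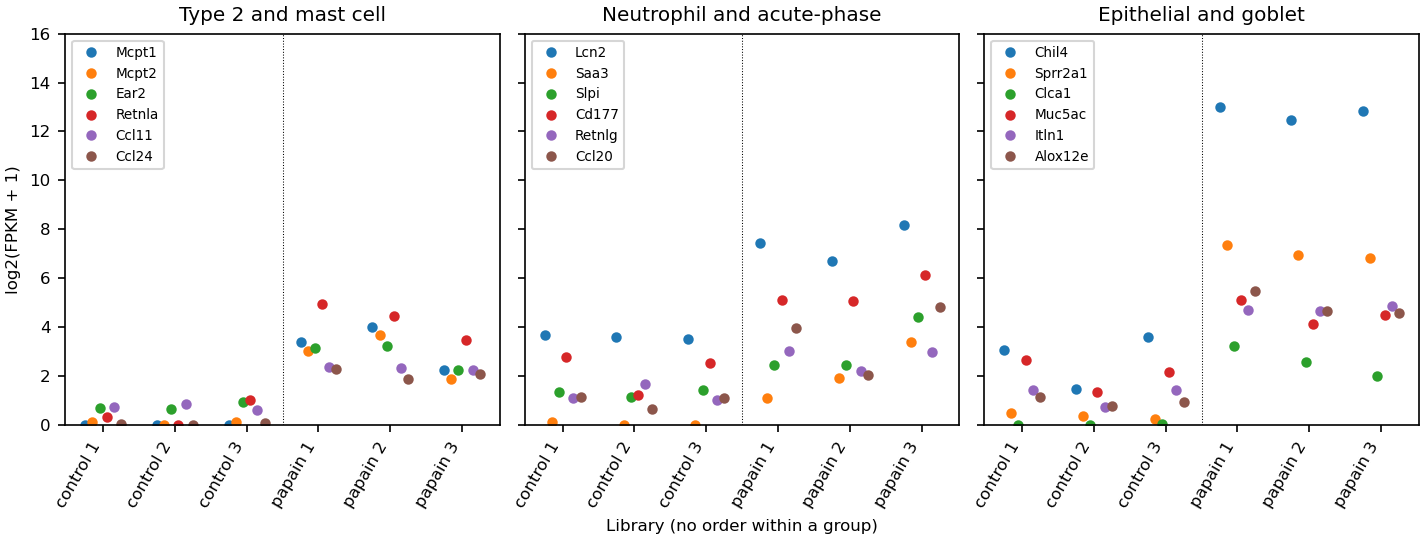
log2(FPKM + 1) of 18 genes in each of the 6 libraries, in 3 panels (genes offset sideways; libraries within a group have no order). Mast cell and Retnla values are lowest in papain library 3 among the papain libraries, while Lcn2, Saa3, Slpi and Ccl20 are highest there.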

How the data were processed

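Poly(A) RNA of mouse nasal mucosa was sequenced in 9 libraries, and 6 (3 control, 3 papain) were compared, grouped by their titles. The authors deposited FPKM values for 21930 genes. The submitters' processing notes name fastp 0.19.4, HISAT2, StringTie and the mm10 build. For annotation, strand and shared reads the setting is not given in the sources used here. Because FPKM divides by all fragments, a change in abundant genes moves every other value. Whole reads could not be recovered (in the 6 libraries only 16.2% to 18.9% of low values came within 0.05 of a whole fragment, where even spacing gives 10%), so depth is a rough estimate and no count test was run.

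Tests used limma 3.58.1 (R 4.3.3) on log2(FPKM + 1), with a trend, a mean per group over 9 libraries (residual degrees of freedom: 6, Benjamini-Hochberg adjustment over all genes tested, threshold 0.05). Scaling used the median of ratios over 16486 genes above 0 in all 9 libraries. On simulated data, 60 of 100 genes changed 2-fold and 98 of 100 changed 4-fold were recovered among 11658 genes, with 14 unchanged genes called. Changes were added on the log2(FPKM + 1) scale, to genes with a control mean above 2 on it. Noise was independent for each gene, with no shift common to a library. These figures thus do not give the recovery or the false calls in the real data, above all for low genes.

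The libraries compared and the gene lists were chosen with earlier results of these data known. Genes were named by rule: the 20 largest steady rises and 20 falls of mean FPKM at least 2 and no Gm or Rik name, up to 3 steady members of smallest p per list (or 2 called on both scales), 25 set genes, and the 10 steady genes of smallest p in no list. Another 39 genes (Chil6, Stat3 and Saa3 among them) were chosen after their values were seen. Alternatives were a pseudocount of 0.1, no filter, a filter at 5 FPKM, TPM, quantile normalization, the 6 libraries alone, no trend, a replicate block and each library left out. List counts without 1 papain library and receptor counts over genes outside the filter were added after seeing the data. Same-numbered control and papain libraries did not deviate together (correlations -0.115, -0.231 and 0.018 of deviations from group means), so numbers were not taken as pairs. Coordinates are those of GENCODE M21 (GRCm38). Promoter sequences are from RefSeq (GRCm38.p6). Some genes that the rule named are not reported here. Figures were drawn with matplotlib 3.10.9.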

Additional observations from a re-analysis of the deposited data

How the results depend on the processing

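Depth was not given with the FPKM values, so the weight of low genes is uncertain, and 3 libraries a group left the counts of calls dependent on single libraries and settings. As deposited, the 409 rises became 718 with the 6 libraries alone, 260 as TPM, 245 with a filter at 5 FPKM, 166 without a filter and 659 after quantile normalization. The 65 falls became 128 with the 6 libraries alone, 19 with the filter at 5 FPKM, 41 without a filter and 511 after quantile normalization. After scaling, the filter at 5 FPKM gave 455 rises and 292 falls. On both scales there were 211 rises and 15 falls with the filter at 5 FPKM, 159 rises without a filter, and 112 falls with the 6 libraries alone. A higher filter tests fewer genes; for the other settings the cause was not tested. Leaving out 1 library gave 186 to 1710 rises and 35 to 148 falls as deposited, 388 to 760 rises and 219 to 637 falls scaled, and 169 to 622 rises and 30 to 139 falls on both scales. A replicate block, whose numbers are not shown to pair libraries, gave 458 rises and 82 falls as deposited, 563 and 367 scaled, and 356 and 70 on both scales. Not every control correlated best with the papain library of its own number. Of 158 named and tested genes, none changed direction past its threshold under any alternative. Dropping the filter ended 49 calls and TPM ended 12, scaling ended 4 and made 2, and quantile normalization ended 5 and made 3. The replicate block, the 6 libraries alone and the pseudocount of 0.1 each made 1 call (Sox4) and ended none.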
